A study of Mus musculus with 11 samples.

Results

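The 10 genes described here are the NR4A nuclear receptors Nr4a1, Nr4a2 and Nr4a3, the EGR zinc finger factors Egr1, Egr2 and Egr3, and the AP-1 subunits Fos, Fosb, Jun and Junb. They were taken by symbol from the deposited table, which lists 14604 genes, and all 10 are listed there. The samples are RNA-seq libraries of regulatory T cells (Tregs), depleted of ribosomal RNA, from tumors and from the spleens of the mice that bore them. Every mouse of the series carried an implant of MC38, a line of mouse colon adenocarcinoma cells. The 11 libraries fall into 4 groups. WT mice carried the CD177flox/flox alleles without a Cre, and gave 3 spleen and 3 tumor libraries. KO mice carried CD177flox/flox/FOXP3-CreYFP, in which the Foxp3 gene drives a Cre fused to a yellow fluorescent protein in Tregs, and gave 3 spleen and 2 tumor libraries. The KO mice therefore differ from the WT mice by the Cre allele as well as by Cd177, and both genotypes share the floxed alleles. Cd177 itself is not among the listed genes, so it offers no check on the genotypes. The labels give no age, and they do not say which spleen and which tumor came from 1 mouse.

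The values are log2(n + 1), where n is the abundance of a gene summed over its transcripts, and they were used as deposited. The scale of n is not stated, so the depth in reads behind a value is unknown and the precision rests on the spread between libraries. Totals of n per library ranged from 712832 to 844331 in spleen and from 1103159 to 1304548 in tumor. A difference of 1 between tissues is a doubling of n + 1, and levels of different genes were not compared, because the values are not known to be per length. Tests were made with limma over the 13897 genes with a mean of at least 0.5, all 10 early genes among them, and a gene was called at a Benjamini-Hochberg adjusted p below 0.05. Nothing in the labels says that the libraries of a group are separate mice, so the p-values measure the spread between these libraries, which may be partly technical. The sorted cells carried Treg RNA in both tissues. Foxp3, the factor that defines Tregs, had a mean of 6.35 in spleen and 5.5 in tumor, and Cd4 had 7.72 and 7.30. The tumor libraries also carried genes of other cells, which are described with their values further on.

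The early genes are transcribed within minutes of a stimulus, without new protein synthesis, and their RNAs are short-lived. In T cells, signals from the antigen receptor reach them through the MAP kinase cascade, through calcium and calcineurin, and through the factors SRF, CREB and MEF2 that sit on their promoters. NR4A receptors are used as reporters of antigen receptor signaling and are needed for Treg identity, Egr2 and Egr3 restrain T cell activation, and FOS and JUN proteins pair to form AP-1. The same genes also respond to stress, including the handling of tissue, and they are active in myeloid cells and fibroblasts as well as in T cells.

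Did the early genes differ between tumor-infiltrating (TI) Tregs and splenic Tregs? All 10 genes were higher in the 5 tumor libraries than in the 6 spleen libraries, with genotypes pooled, and all 10 passed the test. In the same comparison 78.9% of all tested genes were called in either direction and 43.1% were called higher in tumor, so the tissues differed widely. For 8 of the 10 genes every tumor library was above every spleen library, which held for 35.2% of all tested genes. The exceptions were Egr3 and Jun. The median difference of the 10 genes was 1.86, and the median over all tested genes was 0.08. Differences ran from 0.73 for Jun to 3.17 for Egr2. Tumors were dissociated with enzymes and by mechanical means, and their mononuclear cells were taken from a density gradient. Spleens were pressed through a strainer and their red blood cells were lysed. The mix of cells differed too, with log2 sums of 20 myeloid markers between 8.52 and 9.44 in spleen and between 13.86 and 14.37 in tumor. Tissue, preparation and the mix of cells therefore cannot be told apart in this comparison.

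Nr4a1 encodes NUR77, an orphan nuclear receptor whose level follows the strength of antigen receptor signaling. It read 5.62, 5.82 and 6.55 in the WT spleen libraries 1 to 3 and 6.32, 6.12 and 5.60 in the KO spleen libraries 1 to 3. In tumor it read 8.26, 8.78 and 8.98 in the WT libraries and 8.41 and 8.60 in the KO libraries. All 5 tumor libraries were far above all 6 spleen libraries, and the lowest tumor value was 8.26 against a highest spleen value of 6.55. The spleen mean was 6.0 ± 0.39 (SD, n = 6) and the tumor mean 8.60 ± 0.29 (SD, n = 5). The difference of 2.60 (SE 0.18) is a 6.07-fold change of n + 1, with an adjusted p of 3.33e-08 by limma. This was the smallest adjusted p of the 10 genes.

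Nr4a2, which encodes NURR1, read 4.36, 4.87 and 6.0 in WT spleen and 5.57, 5.02 and 4.91 in KO spleen. Its tumor values were 7.59, 7.15 and 7.33 in WT and 7.39 and 6.81 in KO. The tissues did not overlap, and the spleen libraries were spread more widely than the tumor libraries, with SDs of 0.58 and 0.29. The difference was 2.13 (SE 0.25, limma adjusted p = 3.63e-06). Nr4a3, which encodes NOR1, read 5.11, 5.42 and 5.92 in WT spleen, 5.80, 5.28 and 5.55 in KO spleen, 6.88, 7.08 and 7.14 in WT tumor and 7.48 and 6.90 in KO tumor. Again no tumor library reached down to the spleen range. Its difference of 1.58 (SE 0.15, limma adjusted p = 5.67e-07) was the smallest of the 3 receptors.

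Egr1, a zinc finger activator that is itself switched on through SRF, read 4.98, 5.31 and 5.86 in WT spleen and 5.74, 5.40 and 5.27 in KO spleen. In tumor the WT libraries read 7.32, 9.03 and 9.04 and the KO libraries 7.35 and 8.31. The tumor libraries thus lay in a low pair, library 1 of each genotype, and 3 higher libraries, all of them above the spleen range. The difference was 2.78 (SE 0.32, limma adjusted p = 3.52e-06). Egr2, which works with NFAT in tolerant T cells, showed the largest difference of the 10 genes. Its spleen values were 4.62, 3.25 and 4.58 in WT and 3.69, 3.68 and 3.76 in KO. Its tumor values were 6.13, 7.70 and 7.76 in WT and 6.72 and 7.23 in KO. The KO spleen libraries were close to each other, with an SD of 0.042, and the WT spleen libraries were not, with an SD of 0.78. The difference of 3.17 (SE 0.32, limma adjusted p = 1.01e-06) is a 9.02-fold change of n + 1.

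Egr3, a close relative of Egr2, was the member of the EGR family that differed least. It read 3.52, 3.28 and 3.99 in WT spleen and 3.71, 3.22 and 3.36 in KO spleen. The tumor values were 3.76, 4.82 and 4.61 in WT and 3.88 and 4.84 in KO. Library 1 of both tumor groups fell inside the spleen range, and the other 3 tumor libraries were above it. The difference was 0.87 (SE 0.22, limma adjusted p = 0.0025), and it was 0.28 with an adjusted p of 0.24 when library totals were made equal.

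Fos, the AP-1 subunit that is induced and lost fastest, read 7.61, 8.22 and 9.08 in WT spleen, 9.21, 8.08 and 8.04 in KO spleen, 9.64, 10.37 and 10.23 in WT tumor and 9.57 and 10.04 in KO tumor. The lowest tumor library, at 9.57, was only a little above the highest spleen library, at 9.21. The difference was 1.60 (SE 0.27, limma adjusted p = 0.000136). Fosb, its paralog, read 4.76, 5.63 and 7.63 in WT spleen, 7.39, 5.63 and 5.5 in KO spleen, 7.66, 9.22 and 8.89 in WT tumor and 8.06 and 8.89 in KO tumor. Here too WT spleen library 3 and KO spleen library 1 stood above the other 4 spleen libraries, and the tissues were separated by a narrow gap between 7.63 and 7.66. The difference was 2.45 (SE 0.49, limma adjusted p = 0.00051), with the largest standard error of the 10 genes.

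Jun, the main partner of FOS proteins, read 6.67, 7.59 and 7.91 in WT spleen and 7.80, 7.21 and 6.97 in KO spleen. In tumor it read 8.06, 8.56 and 8.11 in WT and 7.86 and 7.87 in KO. The KO tumor libraries lay just below WT spleen library 3, so the tissues overlapped. The difference of 0.73 (SE 0.22, limma adjusted p = 0.0072) was the smallest of the 10, and its direction turned with quantile normalization, where it was -0.054. Junb, which limits JUN activity in some settings and is needed for effector Tregs, read 9.39, 9.77 and 9.90 in WT spleen, 9.74, 9.58 and 9.65 in KO spleen, 10.38, 10.60 and 10.61 in WT tumor and 10.37 and 10.36 in KO tumor. The libraries of each tissue were close together and the tissues did not overlap. Its difference of 0.80 (SE 0.095, limma adjusted p = 5.11e-06) was small beside those of the NR4A genes. In the GENCODE M21 annotation, exons of Jun (chr4:95049034-95052222 of GRCm38, minus strand) overlap those of Junos, and exons of Junb (chr8:84974484-84978718 of GRCm38, minus strand) overlap those of Prdx2, both on the opposite strand. Whether the counting used strand is not given in the sources used here, so reads of these pairs may not be told apart. Prdx2 was 1.54 higher in tumor, and its part in the Junb value was not tested.

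**Figure D1:**
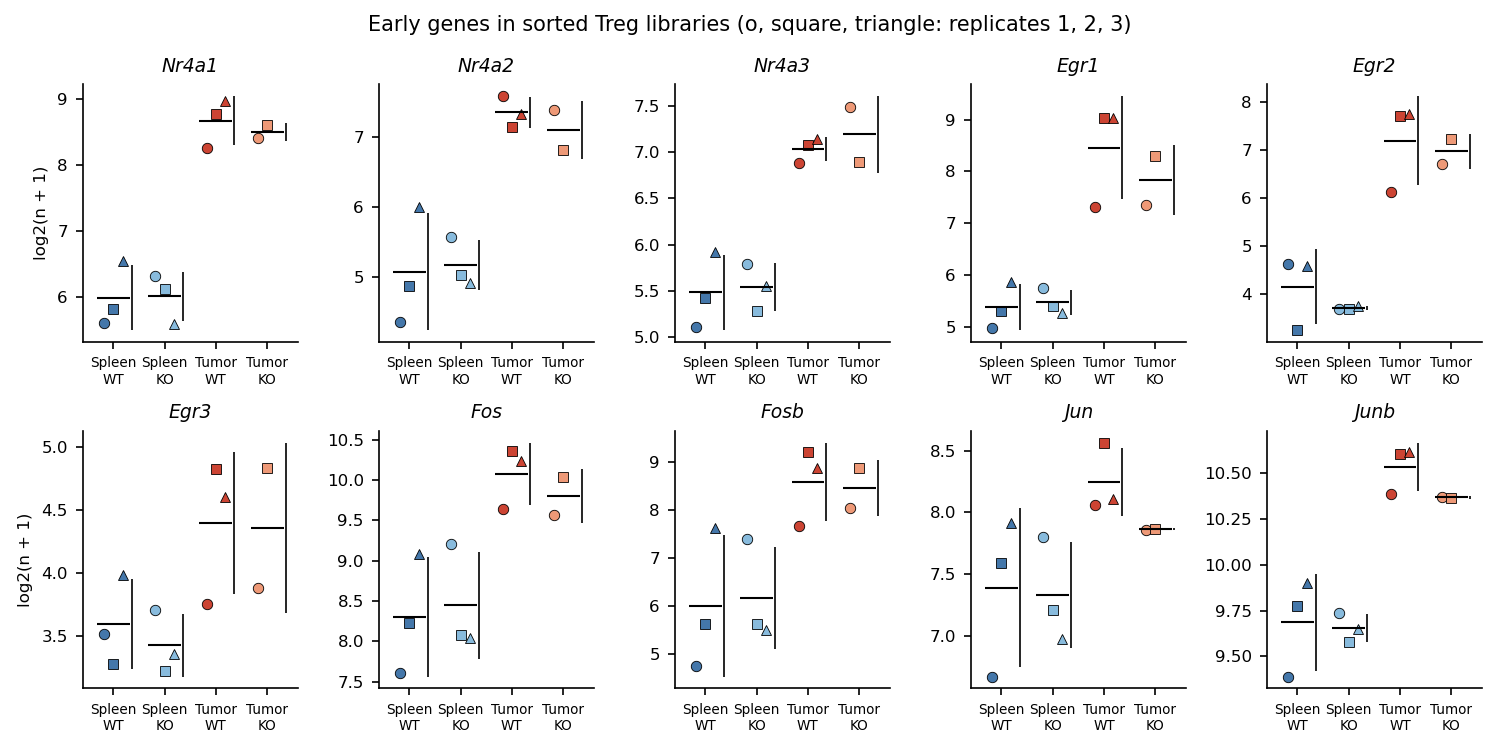
Values of the 10 early genes in each library, as log2(n + 1) on the vertical axis of each panel, by tissue and genotype (3 libraries per group, 2 for tumor KO). Circles, squares and triangles are libraries 1, 2 and 3 of a group, horizontal lines are group means and vertical lines the SD. The axes do not start at 0. The tumor libraries lie above all spleen libraries except for Egr3 and Jun.

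The size of these differences depended on how libraries were scaled, since the n totals and the level of most genes differed between tissues. Centring each library on its median gene lowered the median difference of the 10 genes to 1.64, quantile normalization to 1.38 and equal library totals to 1.24. Centring on 20 T-cell lineage genes, most of which were lower in tumor, raised it to 2.68. The median over all tested genes moved to -0.14, -0.16, -0.44 and 0.89 under the same scalings. Of all calls in the pooled comparison, 54.5% were higher in tumor as deposited, and between 29.6% with equal totals and 89.9% with T-cell lineage centring. Set against the median of all genes, the early genes stood 1.78 higher as deposited, 1.54 with quantile normalization and 1.68 with equal totals. The 2 centrings shift all genes of a library alike, so they leave this value at 1.78 by construction. Nr4a1, Nr4a2, Nr4a3, Egr1, Egr2, Fos and Fosb were called higher in tumor under all 5 scalings. Junb kept its direction and lost its call with quantile normalization (0.16, limma adjusted p = 0.0784) and with equal totals (0.17, limma adjusted p = 0.107), and Jun was not called under either.

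**Figure D2:**
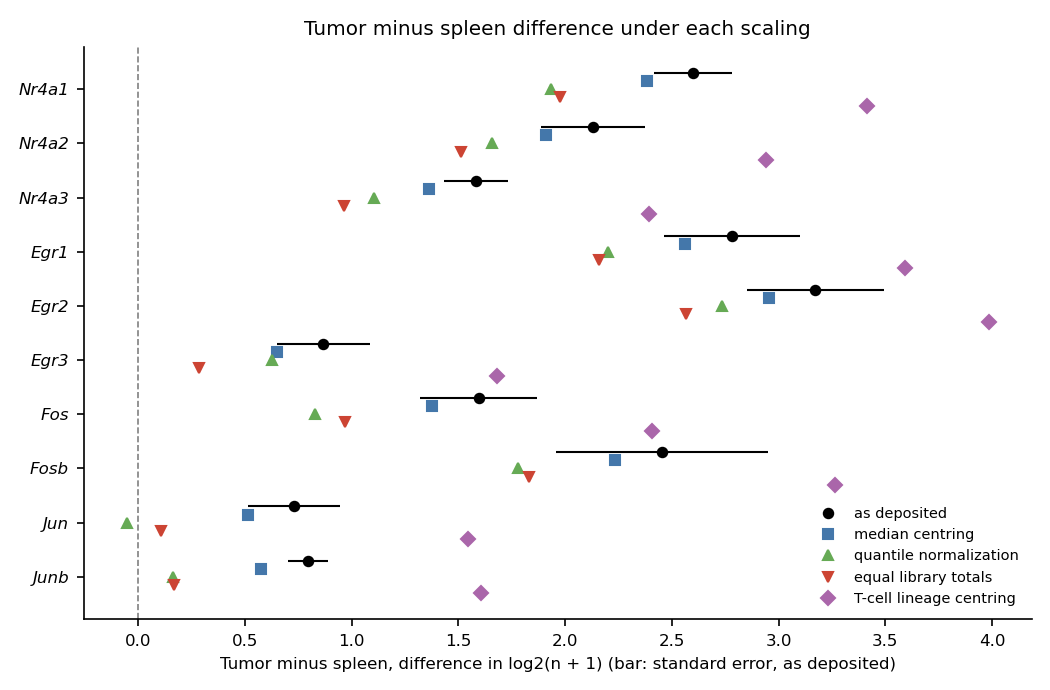
Tumor minus spleen difference in log2(n + 1) of each early gene (horizontal axis) with the values as deposited and under 4 other scalings of the libraries. The black bar is the standard error of the difference as deposited. The 3 genes with the smallest differences, Egr3, Jun and Junb, come nearest to 0, and Jun crosses it with quantile normalization.

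The tissue difference was not of the same size for every member of a family. The difference Nr4a3 minus Nr4a1 within a library had a mean of -0.49 in spleen and -1.51 in tumor, and the 2 ranges did not overlap. Egr3 minus Egr2 had means of -0.42 in spleen and -2.72 in tumor, and Egr3 minus Egr1 of -1.91 and -3.83, both also without overlap. In these 3 pairs the tissue difference was thus smaller for Nr4a3 than for Nr4a1, and smaller for Egr3 than for Egr1 and Egr2. The other pairs overlapped between tissues. Nr4a2 minus Nr4a1 had means of -0.88 in spleen and -1.35 in tumor, Nr4a3 minus Nr4a2 of 0.39 and -0.16, and Egr2 minus Egr1 of -1.50 and -1.10. Fosb minus Fos had a mean of -2.29 in spleen and -1.43 in tumor, with overlapping ranges. Junb minus Jun was alike in both tissues, with means of 2.31 and 2.38. These ratios do not depend on a factor that shifts a whole library, and they are given as a description with no test.

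Was the tissue difference present in each genotype? In WT mice all 10 genes were called higher in tumor, where 39.2% of all tested genes were called higher and 70.5% in either direction. In KO mice 9 of the 10 were called, where 36.2% of all tested genes were called higher and 65.7% in either direction. The exception was Jun, at 0.53 (SE 0.34, limma adjusted p = 0.183). The largest WT differences were those of Egr1, 3.08 (SE 0.44), and Egr2, 3.04 (SE 0.45), and the largest KO differences were those of Egr2, 3.26 (SE 0.50), and Nr4a1, 2.49 (SE 0.30). These estimates lean on few libraries. Without KO spleen library 2, KO spleen library 3 or KO tumor library 2 the KO count fell to 6, with Egr3, Fos and Fosb lost, and in WT the count fell to 8 without WT spleen library 1 or WT tumor library 2, with Egr3 and Jun lost.

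No early gene was called for an effect of genotype. The tissue difference of KO minus that of WT ran from -0.72 for Egr1 (SE 0.66) to 0.22 for Egr2 (SE 0.67), with 0 of 10 called by limma and 0 of 10 at an unadjusted p under 0.05. Over all tested genes 0% were called in this interaction, and 383 genes were at an unadjusted p under 0.05. In spleen, KO minus WT ran from -0.44 for Egr2 to 0.17 for Fosb, with 0 of 10 called, against 0% of all tested genes called by limma and 281 genes at an unadjusted p under 0.05. In tumor, KO minus WT ran from -0.63 for Egr1 (SE 0.49) to 0.16 for Nr4a3 (SE 0.24), and 9 of the 10 values were negative. The median over all tested genes was -0.01. These signs are not separate observations, since the 10 genes varied together between libraries (median r of 0.69) and the KO tumor group holds 2 libraries. None of the 10 was called there, against 0.0072% of all tested genes called by limma, which is 1 gene, and 634 genes at an unadjusted p under 0.05. The standard errors, with medians of 0.34 in spleen and 0.38 in tumor, leave room for genotype differences of a size that this number of libraries could not show.

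The early genes varied between libraries of the same tissue more than most genes did. Among the 8687 genes with a mean of at least 3, the median SD over the 6 spleen libraries was 0.13, and Fosb, with an SD of 1.15, was at the 99.8th percentile. Fos, at 0.63, was at the 99.0th percentile and Nr4a2, at 0.58, at the 98.5th. In tumor the median SD was 0.18, and the EGR genes led, with Egr1 at 0.85 (the 99.2nd percentile), Egr2 at 0.69 (the 98.3rd) and Egr3 at 0.52 (the 96.1st). Junb was the steadiest, with an SD of 0.13 in tumor at the 29.7th percentile. WT spleen library 3 held the highest spleen value for 8 of the 10 genes, whereas it held the highest value for 17.5% of all tested genes. WT spleen library 1 held the lowest for 7 of the 10, and for 18.7% of all tested genes. In tumor, WT library 1 held the lowest value for 6 of the 10 and for 25.1% of all tested genes.

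**Figure D3:**
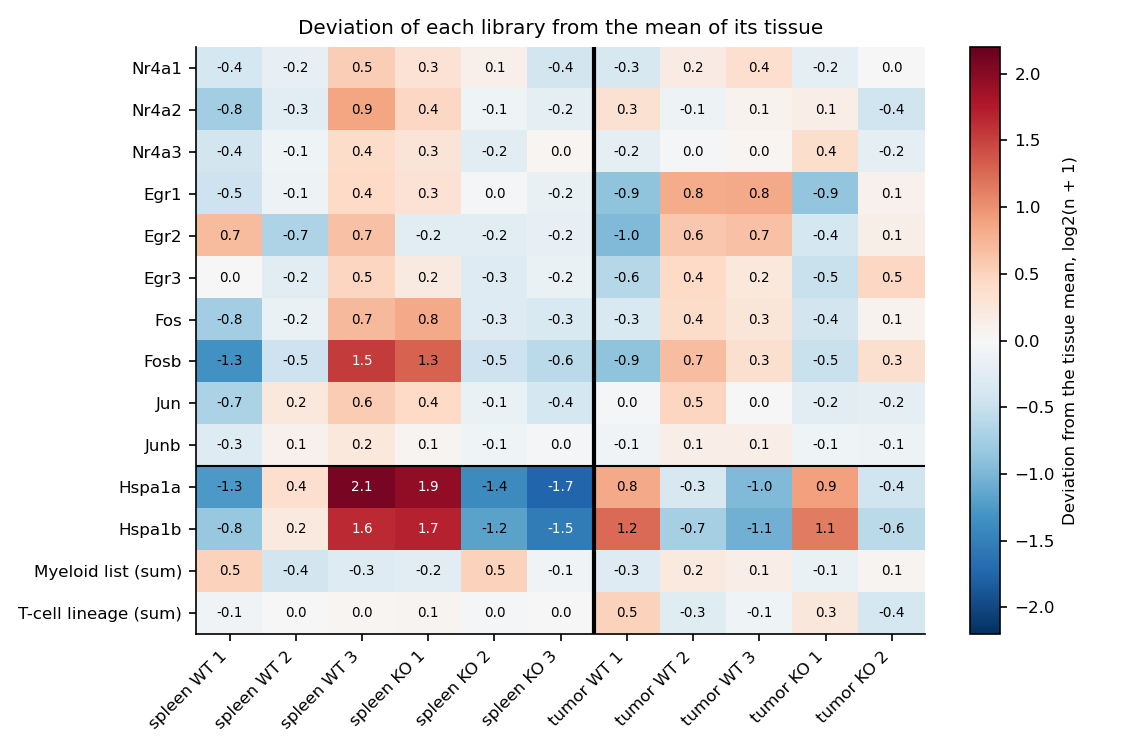
Deviation of each library (columns) from the mean of its tissue, in log2(n + 1), for the 10 early genes, the heat-shock genes Hspa1a and Hspa1b, and the log2 of the summed n of the myeloid and T-cell lineage marker lists (rows). Red is above and blue below the tissue mean, and the vertical line divides spleen from tumor. Spleen WT 3 and spleen KO 1 are high for Fos, Fosb and both heat-shock genes, and tumor WT 1 and tumor KO 1 are low for the EGR genes while they are high for the heat-shock genes.

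After the mean of each tissue and genotype had been taken off, the deviations of the 10 genes over the 11 libraries were positively correlated in 43 of 45 pairs, with a median Pearson r of 0.69 and a range from -0.12 for Nr4a2 with Egr2 to 0.99 for Fos with Fosb. These correlations are a description, since all genes of a library share its cells, preparation and scaling. The genes whose deviations were most like those of Fos were Fosb (r = 0.99), Rcl1 (r = 0.96) and Klf4 (r = 0.96), among 8686 other genes. Those most like Egr2 were Snx10 (r = 0.98), Dnajc10 (r = 0.98) and N4bp1 (r = 0.97). Those most like Nr4a1 were Eef1akmt1 (r = 0.94), Nek6 (r = 0.93) and Naa38 (r = 0.92). Rankings of this kind over 11 libraries pick extreme values among many genes.

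The heat-shock gene Hspa1a was high where Fos and Fosb were high in spleen, and high where Egr1 and Fosb were low in tumor. It encodes an inducible HSP70 chaperone and read 6.17 in WT spleen library 3 and 6.02 in KO spleen library 1, the libraries with the highest Fos and Fosb. In the other spleen libraries it read between 2.33 and 4.44. In tumor it was highest in library 1 of WT, at 8.87, and library 1 of KO, at 8.95, which held the lowest Egr1 and Fosb values. The log2 sum of all 11 heat-shock genes did not share this course in spleen. It was 11.75 in WT library 3 and 11.56 in KO library 1, within a spleen range of 11.56 to 11.75. In tumor it was 12.55 and 12.62 in library 1 of WT and KO, and 12.51 in WT library 2. The summed level of the 20 myeloid markers took the opposite course to Hspa1a in tumor. Its log2 sums were 13.86 and 14.00 in these libraries 1 of WT and KO. They were 14.22, 14.30 and 14.37 in KO library 2, WT library 3 and WT library 2. The log2 of the summed n of the 10 early genes stood in that same order, at 11.75, 11.79, 12.03, 12.31 and 12.38. This sum weighs genes by their n, and not every gene followed it. Nr4a2 was highest in library 1 of WT, at 7.59, and next in library 1 of KO, at 7.39. Nr4a3 was highest in library 1 of KO, at 7.48, and lowest in library 1 of WT, at 6.88. In spleen the order was not shared, since WT library 1 had a myeloid sum of 9.44, near the top, and the lowest early gene sum, 10.18. The part of either in the early gene values was not tested.

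What do the promoters of these genes share? The windows below run from 250 bases before to 50 bases after the RefSeq start, on GRCm38.p6, 5′ to 3′ on the strand of the gene. They are shown because most of the genes moved together between libraries. Egr2 followed the genes outside its family less, with r from -0.12 with Nr4a2 to 0.51 with Nr4a1. RefSeq windows were searched for 8 of the 10 genes. Egr1 and Egr3 were left out of the search, so the motif counts do not cover them. Whether their promoters hold these motifs was not tested. Capitals mark the CRE core TGACG, the part of the cAMP response element bound by CREB and ATF proteins, and the EGR site GCGNGGGCG, each on either strand, and in Egr2 the CArG box, bound by SRF. For Egr2, 1 of 5 RefSeq starts is shown, the first that holds a CArG box.
Nr4a1, chr15:101266596-101266895, plus strand: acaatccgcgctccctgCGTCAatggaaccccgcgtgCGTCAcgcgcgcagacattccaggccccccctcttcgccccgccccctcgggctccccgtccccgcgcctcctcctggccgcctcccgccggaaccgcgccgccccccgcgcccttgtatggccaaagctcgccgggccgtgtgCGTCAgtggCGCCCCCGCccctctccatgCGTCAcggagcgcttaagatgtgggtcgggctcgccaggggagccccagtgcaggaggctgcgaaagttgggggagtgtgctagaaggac
Egr2, chr10:67537316-67537615, plus strand: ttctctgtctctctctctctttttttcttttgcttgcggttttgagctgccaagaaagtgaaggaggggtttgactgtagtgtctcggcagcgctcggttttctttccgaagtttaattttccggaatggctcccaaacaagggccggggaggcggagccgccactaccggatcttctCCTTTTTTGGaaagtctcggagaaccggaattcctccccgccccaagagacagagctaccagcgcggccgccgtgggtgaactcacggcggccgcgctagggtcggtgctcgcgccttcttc
Fos, chr12:85473640-85473939, plus strand: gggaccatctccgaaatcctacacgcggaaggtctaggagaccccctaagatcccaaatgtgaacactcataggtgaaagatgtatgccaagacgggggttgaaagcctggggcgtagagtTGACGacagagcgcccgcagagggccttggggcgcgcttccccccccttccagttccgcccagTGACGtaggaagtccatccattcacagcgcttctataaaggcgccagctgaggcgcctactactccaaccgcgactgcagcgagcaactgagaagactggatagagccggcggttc
Fosb, chr7:19309996-19310295, minus strand: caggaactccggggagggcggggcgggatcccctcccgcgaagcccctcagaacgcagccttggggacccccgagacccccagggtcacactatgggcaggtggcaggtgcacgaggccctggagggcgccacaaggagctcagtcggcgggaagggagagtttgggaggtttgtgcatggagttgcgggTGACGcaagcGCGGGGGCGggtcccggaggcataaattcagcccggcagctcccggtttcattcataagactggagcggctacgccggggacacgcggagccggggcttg
Junb, chr8:84978699-84978998, minus strand: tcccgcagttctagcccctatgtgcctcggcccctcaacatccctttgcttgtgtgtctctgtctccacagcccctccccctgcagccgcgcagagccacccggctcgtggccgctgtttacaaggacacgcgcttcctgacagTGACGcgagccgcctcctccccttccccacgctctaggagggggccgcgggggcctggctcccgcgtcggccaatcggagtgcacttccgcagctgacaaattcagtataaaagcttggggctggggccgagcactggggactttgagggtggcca

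Nr4a1 holds the CRE core 4 times, at -233, -213, -69 and -40 bases from the start, and an EGR site at -60. Fos holds the core at -129 and -66, Fosb at -60 beside an EGR site at -50, and Junb at -106. The Egr2 window shown holds a CArG box at -72 and no CRE core. Counting all windows of a gene, the core was found in 7 of the 8 genes, Jun being the one without, and the share among all 32851 RefSeq windows of this length was 20.8%. The EGR site was found in 3 of the 8 genes (Nr4a1, Nr4a2 and Fosb) and in 5.55% of all windows, and the CArG box in 1 of the 8 genes (Egr2) and in 1.63% of all windows. None of the 8 held the full CRE TGACGTCA, which contains the core, the AP-1 site TGANTCA or the NR4A site AAAGGTCA, found in 1.79%, 7.81% and 1.51% of all windows. The CRE core was added to the search after the sequences had been seen. Genes can have several windows and base composition was not matched, so the shares are a description, and a match is a run of letters and not evidence of binding.

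Other AP-1 genes were also higher in tumor, several by more than the 10 early genes. Of 10 tested relatives of Fos and Jun, 9 were called higher and 0 lower, with a median difference of 2.21. Atf3, a stress-induced factor that pairs with JUN, had a mean of 1.94 in spleen and 7.49 in tumor, a difference of 5.55 (SE 0.32). Fosl2 went from 3.0 to 7.94, a difference of 4.94 (SE 0.13), Jdp2 differed by 3.96 and Fosl1 by 3.48. Batf3 was 1.92 higher and Maff 2.49 higher. Jund was 0.64 higher as deposited and -0.20 with quantile normalization, and Batf, which partners with IRF4 in effector Tregs, was 0.48 higher as deposited and -0.13 with equal totals. Mafk was not called, at -0.012. Nab1 and Nab2, the corepressors that EGR proteins switch on, were 0.89 and 0.49 higher, Nab2 being -0.12 with equal totals. Egr4, the remaining EGR gene, was below the filter, between 0.32 and 0.98 in spleen and between 0.16 and 0.59 in tumor.

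Among 25 other immediate early genes, 18 were called higher and 2 lower in tumor, with a median difference of 1.31. Ptgs2, which encodes cyclooxygenase-2, had a mean of 0.47 in spleen and 8.57 in tumor. Ier3 went from 1.71 to 8.94. Ier5l differed by 3.44 and Klf4 by 3.27. Zfp36, which destabilizes early gene and cytokine RNAs, was 2.17 higher, and Nfkbia, the NF-kB inhibitor, 2.02 higher. Klf2, a factor of resting and recirculating T cells, fell by 0.80 on the log2 scale and Cd69, an early activation antigen, fell by 0.49, both as deposited. With T-cell lineage centring Klf2 was 0.02 and Cd69 was 0.33, and Cd69 lost its call without any 1 of 7 libraries. Of 13 genes for MAP kinase phosphatases and Sprouty proteins, which shut the same cascade off, 9 were called higher and 2 lower, with a median difference of 1.58. Spry2 was 3.12 higher, Dusp16 2.56, Spred1 2.35 and Dusp4 2.18. Dusp1 was 1.53 and Dusp6 1.58 higher. Spry1, at -1.45, and Dusp10, at -0.94, were lower, and Dusp10 lost its call with T-cell lineage centring (-0.13, limma adjusted p = 0.559).

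Genes of the pathways that feed the early genes were called in both directions as deposited, and their counts depended on the scaling. Of 12 tested genes of the calcium, calcineurin and NFAT route, 3 were called higher and 9 lower, with a median difference of -0.46, and with T-cell lineage centring 5 were called higher and 2 lower. Rcan1, an NFAT target that inhibits calcineurin, was 2.91 higher, while the NFAT gene Nfatc1 was 0.80 lower, the calcineurin subunit Ppp3cb 0.81 lower, Tox 1.93 lower and Tox2 1.66 lower. The calcineurin genes Ppp3ca and Ppp3r1 were 0.47 and 0.38 higher as deposited, and -0.14 and -0.24 with equal totals. Of 17 tested genes for SRF, CREB and MEF2 factors and their partners, 5 were called higher and 10 lower, with a median of -0.28, whereas 10 were called higher and 0 lower with T-cell lineage centring. Crem, a CREB relative with inducible repressor forms, was 3.39 higher, Mef2c 2.83, Mef2a 1.63 and Elk3 0.99. Elk4 was 1.20 lower, Mrtfa 1.14 lower, Crtc1 0.91 lower and Crtc3 0.77 lower. With T-cell lineage centring the calls of Elk4 (-0.39, limma adjusted p = 0.0628), Mrtfa (-0.33, adjusted p = 0.0949) and Crtc1 (-0.10, adjusted p = 0.72) were lost, as was that of Ppp3cb (-0.0024, adjusted p = 0.991). Srf itself was not called, at 0.06, and was negative under 3 of the other scalings. Creb1 was 0.63 lower as deposited and 0.18 with T-cell lineage centring.

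Of 16 genes of the MAP kinase cascades, 5 were called higher and 6 lower, with a median of 0.02, whereas 14 were called higher and 0 lower with T-cell lineage centring, and 5 higher and 11 lower with quantile normalization. Mapk3, which encodes ERK1, was 2.22 higher, Map2k3 1.92, the MEK1 gene Map2k1 1.25 and Hras 0.95. Map2k6, of the p38 branch, was 1.02 lower, and lost its call with T-cell lineage centring (-0.21, limma adjusted p = 0.394). Mapk8 was 0.39 lower, Mapk14 0.36 and Map2k4 0.33. The last 3 directions turned with T-cell lineage centring, where they were 0.42, 0.45 and 0.49, as did those of Nfatc1 (0.01) and Crtc3 (0.05). T-cell lineage centring also turned the median of the NFAT list, to 0.35, and that of the SRF, CREB and MEF2 list, to 0.53, and raised that of the MAP kinase list to 0.83. The MAP kinase median was -0.20, -0.28 and -0.59 with median centring, quantile normalization and equal totals. The medians of the AP-1 relatives, of the other immediate early genes and of the phosphatases were above 0 under all 5 scalings. With equal totals, the scaling with the fewest higher calls, 7 of the AP-1 relatives were called higher and 1 lower, 15 and 6 of the other immediate early genes, and 8 and 3 of the phosphatases. Over the 8 lists of related genes, 90 of 106 tested genes were called, 60 higher and 30 lower in tumor. That is 84.9% called and 56.6% called higher, beside 78.9% and 43.1% of all tested genes. The lists, like the 10 genes, were chosen with results of these data known, so their counts are a description and not independent evidence.

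**Figure D4:**
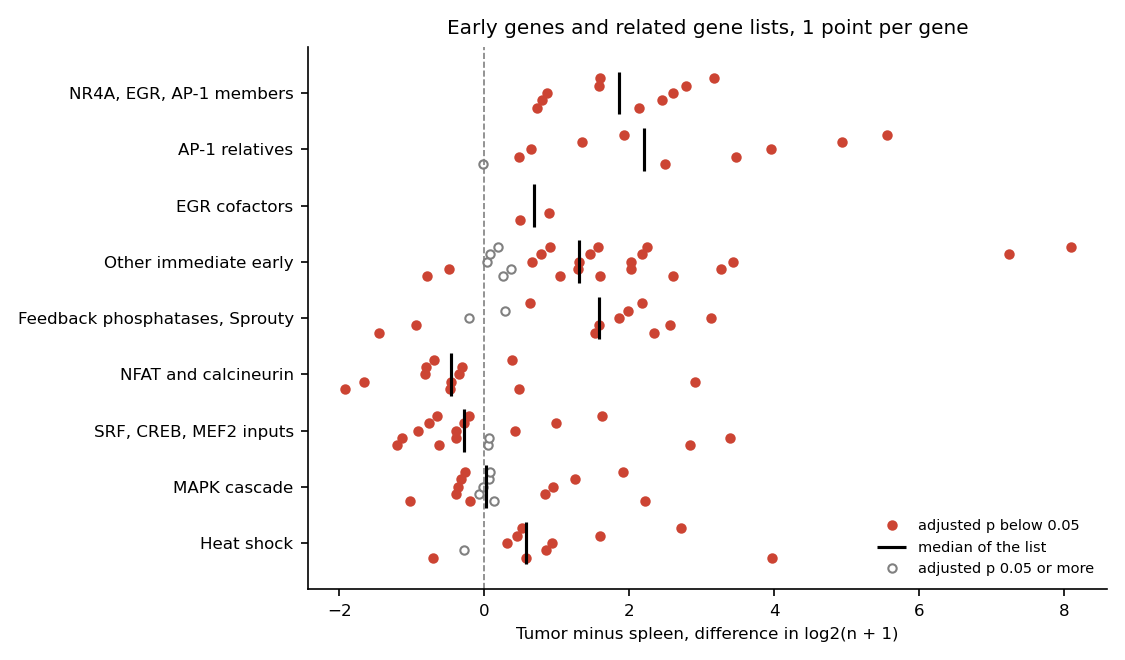
Tumor minus spleen difference in log2(n + 1) (horizontal axis) of the 10 early genes and of the tested genes of 8 related lists, 1 point per gene. Filled points were called by limma at an adjusted p below 0.05 and open points were not, and the black line is the median of a list. The AP-1 relatives, other immediate early genes and phosphatases lie mostly to the right of 0, and the NFAT, SRF and MAP kinase lists lie on both sides with the values as deposited.

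Heat-shock genes are often raised by tissue dissociation, and their count in tumor depended on the scaling. Of 11 tested, 9 were called higher and 1 lower as deposited, with a median difference of 0.57. With quantile normalization 4 were called higher and 4 lower, with a median of 0.08, and with equal totals 4 higher and 3 lower, with a median of -0.05. Hspa1a was 3.96 higher, Hspa1b 2.72, Hspb1 1.60 and Hspa8 0.93, and Dnaja1 was 0.71 lower. Hspa8 was -0.038 with quantile normalization and Dnaja1 0.10 with T-cell lineage centring. The part of dissociation in the early gene difference was not tested.

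RNA of other cell types was present in the tumor libraries, although cells had been sorted as live CD4+ GITR+ CD25+ cells. All 20 myeloid markers were called higher in tumor, with a median difference of 4.97, and the log2 of their summed n lay between 8.52 and 9.44 in spleen and between 13.86 and 14.37 in tumor. Lyz2, the lysozyme of macrophages and granulocytes, had a mean of 4.75 in spleen and 12.35 in tumor. Of 8 fibroblast markers, 7 were called higher, with a median of 5.62 and log2 sums between 3.39 and 4.46 in spleen and between 10.07 and 11.24 in tumor. The exception was Fap, at 0.47, and the fibroblast genes Dcn and Pdgfra were not among the genes of the deposited table. The tumor means of Col3a1 and Col1a1, collagen genes of fibroblasts, were 8.84 and 7.0. Whether part of this RNA came from the implanted MC38 cells was not tested. Of 10 markers of CD8 T and NK cells 7 were higher and 1 lower, with log2 sums between 5.60 and 6.39 in spleen and between 7.23 and 9.08 in tumor. Of 7 B-cell markers 2 were higher and 5 lower, with log2 sums between 4.10 and 6.0 in spleen and between 4.59 and 5.23 in tumor, and of 7 endothelial markers 3 were higher and 2 lower, with log2 sums between 6.0 and 6.33 and between 5.25 and 5.44. None of the listed markers was at 0 in all libraries.

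Genes of T cells went the other way. Of 20 T-cell lineage genes 0 were called higher and 17 lower, with a median of -0.83 and log2 sums between 12.27 and 12.40 in spleen and between 11.07 and 11.96 in tumor. Of 7 Treg genes 2 were called higher, Tnfrsf18, at 1.08, and Ctla4, at 0.57. Tnfrsf18 encodes GITR, so it, Cd4 and the CD25 gene Il2ra were used by the sort. The Treg genes called lower were Foxp3, Ikzf2, Cd4 and Cd3e, and Il2ra was not called, at -0.27. Foxp3 was 0.85 lower in tumor and 0.04 lower with T-cell lineage centring, where it was not called. Fewer cells of a type and less RNA per cell cannot be told apart in such bulk samples, and the early genes are expressed by myeloid cells and fibroblasts too. The part of these cells in the early gene difference was not tested.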

How the data were processed

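The 11 libraries of sorted Tregs were assigned to spleen or tumor, WT or KO, from their labels. The authors sequenced single-end reads, pseudoaligned them with kallisto to mm10, aggregated estimated counts by gene symbol with sleuth 0.30.0 and deposited log2 values, log2(n + 1). For kallisto no version, and for the transcripts no release, is given in the sources. The log2 scale does not allow a count model.

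The deposited log2 values were read as they stand. Genes with a mean of at least 0.5 were kept (13897 genes, 707 removed). Tumor and spleen were compared, with genotypes pooled as in the study, by limma 3.58.1 under R 4.3.3, with empirical Bayes moderation and a mean-variance trend. A model with 4 tissue and genotype means gave the other comparisons. The threshold was an adjusted p of 0.05 (Benjamini-Hochberg, over all genes tested). The fit was tested on simulated data. The members and lists were chosen with earlier results of these data known. The named genes are the 10 members, up to 4 largest rises and 4 largest falls of each list among called genes, genes named for their role, and the 3 genes most like Nr4a1, Egr2 and Fos. Gene positions are from GENCODE M21 on GRCm38 (mm10), promoter windows from RefSeq on GRCm38.p6.

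Same-numbered libraries were not treated as pairs. Their deviations over all genes correlated between -0.13 and 0.04, although the study took spleens and tumors from the same mice. Alternatives changed the scaling, pseudocount, filter, variance model, correction, covariates and the libraries used.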

Additional observations from a re-analysis of the deposited data

How the results depend on the processing

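Of the 10 early genes, 10 were called higher in tumor with genotypes pooled when each library was left out in turn (range 10 to 10), 8 to 10 in WT and 6 to 9 in KO. A Bonferroni correction left 6 pooled, 1 in WT and 0 in KO. Quantile normalization and equal library totals each left 5 in KO. The shares of all tested genes called under these settings are not given here, so the counts are not set beside a background. For the 8 related lists, 90 genes were called as deposited, 47 with a Bonferroni correction, and 87 to 91 with a library left out. No early gene was called for the interaction or for KO against WT under any alternative that could be run, with a library left out each time 0 to 0.

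Directions turned for a few genes. With quantile normalization Jun was -0.054 pooled and -0.22 in KO, Hspa8 -0.038, Jund -0.20 and Srf -0.19. With equal library totals Jun was -0.10 in KO, Nab2 -0.12, Ppp3ca -0.14, Ppp3r1 -0.24, Batf -0.13 and Srf -0.54. With median centring Srf was -0.15. With T-cell lineage centring Klf2 was 0.017, Cd69 0.33, Nfatc1 0.010, Crtc3 0.047, Mapk8 0.42, Mapk14 0.45, Map2k4 0.49, Dnaja1 0.10, Creb1 0.18 and Cd4 0.39. These scalings shift all genes of a library, and the share of calls that were higher in tumor was 54.5% as deposited, 42.1% with quantile normalization, 43.7% with median centring, 29.6% with equal totals and 89.9% with T-cell lineage centring. Which scaling is right was not tested.

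The labels give the groups shared replicate numbers. The correlation of same-numbered tumor and spleen libraries was -0.13, 0.01 and -0.07 for the WT pairs and 0.02 and 0.04 for the KO pairs. No WT tumor library correlated best with the spleen library of its own number. Each KO tumor library did, among KO spleen libraries 1 and 2. The deviations of the 2 KO tumor libraries from their shared mean mirror each other, so these matches are not separate observations. With so few libraries in a group this check cannot exclude pairing, and the numbers were not taken to pair the libraries. With the replicate number as a block, 10 early genes were called pooled, 9 in WT and 8 in KO, with Egr3 lost in both (limma adjusted p = 0.0687 and 0.101), and 89 of the related genes. The share of all tested genes called with this block is not given here, so these counts are not set beside a background. No limit from counting can be given, since reads behind the values are not known.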
